A study of Mus musculus with 6 samples.

Results

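Translation initiation and elongation factors are the proteins that load a ribosome onto an mRNA, find the start codon and then add amino acids one codon at a time. Here the set comprised every row of the deposited count table whose gene symbol begins with Eif1 to Eif6 or with Eef1 or Eef2. The hypusinated factor eIF5A (Eif5a and Eif5a2), the eIF2 kinases, and the kinase and methyltransferase of eEF2 were left out, which removed 8 rows. This gave 56 genes among 24421 in the table, of which 53 had enough counts to be tested. Membership was decided by gene name alone, but the set was chosen with earlier results of these data known.

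RNA was sequenced from isolated islets of C57BL/6J mice, in 3 libraries labelled control and 3 labelled as carrying a floxed Dhps gene together with MIP1-CreERT. Dhps encodes deoxyhypusine synthase, which starts the hypusine modification of eIF5A. MIP1-CreERT is a Cre recombinase under the mouse insulin promoter that becomes active with tamoxifen, so the deletion is meant for the insulin-producing β cells among the several cell types of an islet. The age of the mice, the dosing, the meaning of the prefix HF in the sample names, and whether control mice carried Cre or received tamoxifen were not given in the labels. Nor did the labels state that each library came from separate mice, so the p-values below describe the spread between these libraries.

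Initiation starts when eIF1, eIF1A, eIF3 and the eIF2 complex with the initiator tRNA assemble on the small ribosomal subunit. The cap-binding eIF4 factors bring the mRNA, eIF5 and eIF5B complete the joining of the large subunit, and eIF2B recharges eIF2 with GTP for the next round. Elongation is carried by eEF1A, which delivers each aminoacyl-tRNA, by the eEF1B subunits, which recharge eEF1A, and by eEF2, which moves the ribosome to the next codon. Secretory cells such as β cells depend on this machinery for hormone synthesis, and phosphorylation of eIF2 by stress kinases, which blocks eIF2B, is a main brake on it.

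The libraries held 21027737 to 23249895 counts and 15954 to 16370 detected genes. Insulin transcripts were present throughout, with Ins2 between 263100 and 355400 CPM (counts scaled to a common library size with TMM factors) in control islets and between 271400 and 309400 in knockout-labelled islets. The targeted gene did not separate the groups: Dhps had 260, 321 and 312 counts in controls 1 to 3 and 266, 271 and 225 in knockout-labelled libraries 1 to 3 (log2 fold change −0.07 ± 0.12 SE, edgeR adjusted p = 0.742). The counts sum all exons of a gene, so a deletion of part of Dhps need not lower them, and this value does not check the labels. Its gene model also shares exon sequence with Wdr83, and islets hold other cells besides β cells. All directions below therefore refer to library labels. Summed CPM of 21 acinar markers ranged from 1200 to 13350 in the controls, lowest in control 3, and from 31780 to 36080 in the knockout-labelled libraries. The sums of 9 stromal, 9 endothelial, 14 myeloid and 4 non-β endocrine markers also did not overlap between groups, with 83.0 to 313 against 344 to 439 CPM, 347 to 452 against 489 to 572, 446 to 462 against 549 to 940, and 47350 to 64220 against 68700 to 81080. Called higher were 1 of 20 tested acinar, 4 of 9 stromal, 4 of 9 endothelial, 7 of 14 myeloid and 1 of 4 non-β endocrine markers. In these lists 0 markers were called lower. Gcg, the largest part of the non-β endocrine sum, overlapped between groups, as did Cd74, the largest part of the myeloid sum. Among the acinar markers, Ptf1a was at 0 in 2 libraries and Rbpjl in 1, and no other marker of these lists was at 0 in any library. The summed level of 9 β cell markers, most of it from Ins1, Ins2 and Iapp, overlapped at 365100 to 493500 and 391700 to 446500 CPM. Gene by gene, 4 of the 9 were called lower and 0 higher, against 2.63% and 4.14% of all genes. The median log2 fold change over the list was −0.65. The 4 were Slc2a2 (−1.15, edgeR adjusted p = 0.0284), Glp1r (−0.88, adjusted p = 0.0146), Ucn3 (−0.86, adjusted p = 0.0197) and Nkx6-1 (−0.65, adjusted p = 0.0215). In bulk libraries, fewer cells of a type and less RNA per cell cannot be told apart.

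Of 53 tested translation factor genes 49 were not called, and 4 rose in the knockout-labelled libraries: Eif2b5, Eif1ax, Eif4ebp1 and Eef1a2. None of the 53 tested members was called lower. The rise of 4 members is 7.55% of those tested, against 4.14% of all 13736 genes called higher, 2.63% called lower and 6.76% called in either direction (edgeR quasi-likelihood test, Benjamini-Hochberg adjusted p under 0.05). The members' share is near the 6.76% of all genes and is not a result about these factors. Unadjusted p-values under 0.05 were found for 10 members, 9 of them higher, and for 26.5% of all genes.

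Fold changes were small. The absolute log2 fold change had a median of 0.15 over the tested members and 0.23 over all tested genes, and only 3 members differed by more than 1.5-fold, namely Eif2b5, Eif4ebp1 and Eef1a2. The within-group coefficient of variation was also low, with a median of 8.47% over members against 12.9% over all tested genes. It was 10.3% over the 9725 genes at or above the level of Eef1a2, the second lowest tested member on the CPM scale. The median absolute log2 fold change over those 9725 genes was 0.18, closer to that of the members than the 0.23 of all tested genes. A positive log2 fold change was found for 41 of 53 members, against 50.9% of all genes, and the member median was 0.12, against 0.01 over all genes. That median was 0.05 without control 3 and −0.01 with each library's acinar marker level as a covariate, where 24 of 53 members were positive. The covariate was the mean log2 CPM of the acinar markers. Their summed level did not overlap between groups, so acinar level and group cannot be told apart in that fit. A call lost there does not measure the acinar part. Control 3 also had the lowest summed acinar level, at 1200 CPM against 13350 and 11640 in controls 1 and 2. The fits without control 3 and with the covariate are therefore not independent. Control 3 held the lowest CPM of the 6 libraries for 24 of 53 members (45.3%, against 19.2% of all tested genes). Groups did not overlap for 19 of 53 members (35.8%), against 32.1% of all genes.

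**Figure D1:**
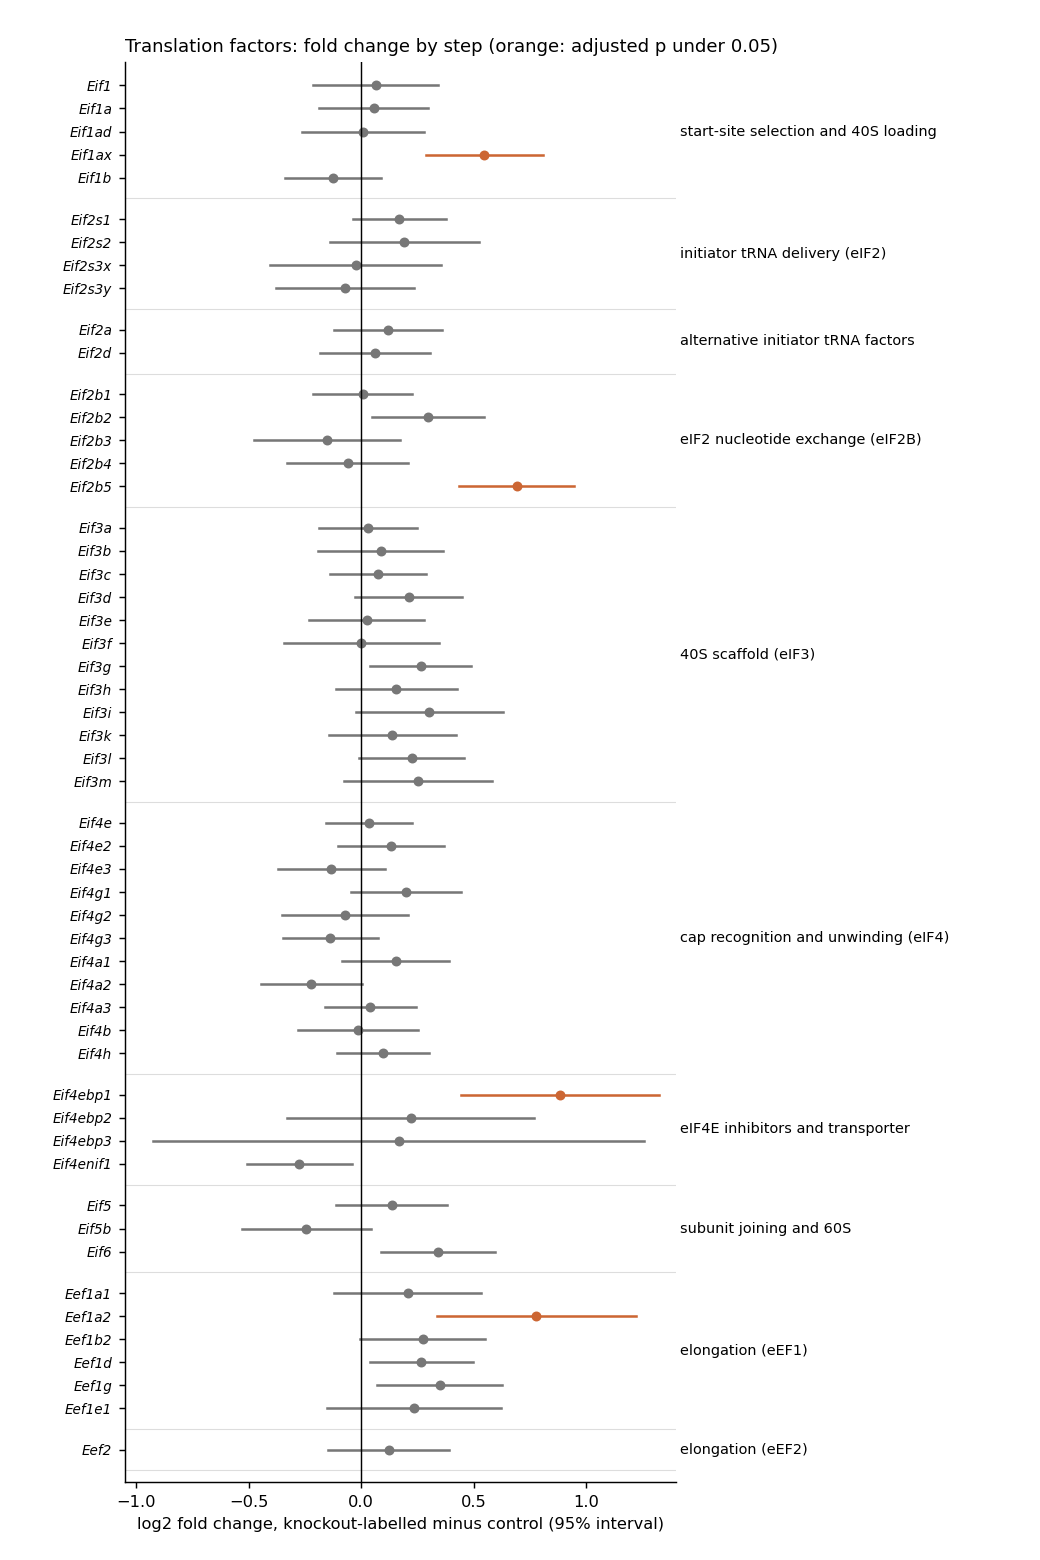
Log2 fold change (x axis, knockout-labelled minus control) of the 53 tested translation factor genes, grouped by step, with 95% intervals from the edgeR fit. The 4 orange genes passed an adjusted p of 0.05, and the remaining 49 in grey lie between −0.27 and 0.35.

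The sequence just upstream of the annotated start was examined for the genes that rose, to show which short motifs these windows hold. RefSeq promoter windows on GRCm38.p6 (the assembly that mm10 names) were matched for 42 of the 56 members, in 49 windows. There was no entry for Eif4ebp1. The 250 bases before the start are shown for Eif2b5, Eif1ax and Eef1a2, and for Eef1a1 as the abundant paralog of Eef1a2. Capitals mark matches, on either strand, to 6 motifs: the GC box GGGCGG, the ETS core CCGGAAG, the E-box CACGTG, the cyclic AMP element TGACGTCA, the TATA box TATAAA and the C/EBP-ATF core TGATGCAA. Overlapping matches, as in the run of GC boxes in Eif1ax, were each counted.
Eif2b5 (chr16:20498567-20498816, plus strand): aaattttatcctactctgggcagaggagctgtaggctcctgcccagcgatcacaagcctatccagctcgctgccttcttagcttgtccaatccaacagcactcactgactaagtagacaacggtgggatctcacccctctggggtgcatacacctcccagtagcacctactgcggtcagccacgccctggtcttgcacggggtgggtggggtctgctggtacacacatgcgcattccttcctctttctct
Eif1ax (chrX:159371928-159372177, plus strand): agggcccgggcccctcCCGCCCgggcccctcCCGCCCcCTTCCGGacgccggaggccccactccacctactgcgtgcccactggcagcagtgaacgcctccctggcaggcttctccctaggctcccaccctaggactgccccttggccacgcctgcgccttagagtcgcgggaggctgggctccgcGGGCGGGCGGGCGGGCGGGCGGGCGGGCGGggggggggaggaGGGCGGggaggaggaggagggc
Eef1a2 (chr2:181157016-181157265, minus strand): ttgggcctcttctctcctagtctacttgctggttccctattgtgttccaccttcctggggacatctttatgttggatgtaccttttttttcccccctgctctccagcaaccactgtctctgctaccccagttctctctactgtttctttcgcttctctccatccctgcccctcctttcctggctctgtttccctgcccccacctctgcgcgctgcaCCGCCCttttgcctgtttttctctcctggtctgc
Eef1a1 (chr9:78481725-78481974, minus strand): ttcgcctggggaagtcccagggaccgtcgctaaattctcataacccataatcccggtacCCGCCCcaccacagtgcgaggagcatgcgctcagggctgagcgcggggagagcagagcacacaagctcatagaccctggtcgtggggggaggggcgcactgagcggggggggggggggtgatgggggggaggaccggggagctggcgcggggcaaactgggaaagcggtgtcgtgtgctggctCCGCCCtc

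The windows shown differed in motif content. Eif1ax held 10 GC box matches and 1 ETS core in a window of 78.8% G and C, Eef1a2 held 1 GC box at 54.0%, and Eef1a1 held 2 GC boxes at 68.0%. The Eif2b5 window, at 56.0% G and C, held none of the 6 motifs. Over all 49 member windows, 73.5% held a GC box, 20.4% an ETS core and 16.3% an E-box, against 32.7%, 6.91% and 6.02% of 32851 windows of the same length. Those 32851 windows were not restricted to genes expressed in these libraries, so the excess is not shown to be particular to translation factors. Median G and C content was 61.2% over the member windows against 52.4% over all windows. TATA boxes were at 10.2% and 12.4%. The cyclic AMP element and the C/EBP-ATF core were in 0 of the 49 windows, against 1.55% and 0.791% of all windows. A match describes letters only, not binding.

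Among the members whose symbols begin with Eif1, Eif1ax rose and the other 4 were not called. Eif1ax encodes eIF1A from the X chromosome (159372195 to 159385699 on mm10, 7 exons). Its CPM values were 13.2, 13.5 and 11.3 in controls 1 to 3 and 18.2, 18.6 and 18.7 in knockout-labelled libraries 1 to 3. Every knockout-labelled value lay above every control, and the knockout-labelled values were close to one another. The log2 fold change was 0.55 ± 0.12 (SE, 95% interval 0.29 to 0.81, adjusted p = 0.0301). Eif1a, an autosomal gene on chromosome 18 whose product is nearly identical, was more abundant and was not called, at 114 ± 10.8 CPM in control islets against 119 ± 10.2 in knockout-labelled islets (SD, n = 3 each, log2 fold change 0.06 ± 0.11). Reads that match both genes may have been dropped or split, because the multi-mapping setting of the count was not given. Per kb of exon, Eif1a was at 40.5 and Eif1ax at 16.8 CPM over the 6 libraries. Eif1, which keeps the scanning ribosome open until the start codon is met, was the most abundant member per kb at 524 CPM per kb, with a log2 fold change of 0.06 ± 0.13. Its paralog Eif1b (−0.13 ± 0.10) and the related Eif1ad (0.01 ± 0.12, exons shared with Banf1) were not called.

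The subunits of eIF2, which brings the initiator tRNA, were not called. The α subunit Eif2s1, the one that stress kinases phosphorylate, had 44.8, 41.5 and 46.9 CPM in control islets against 51.8, 49.6 and 48.5 in knockout-labelled islets. These groups did not overlap, yet the difference was small (log2 fold change 0.17 ± 0.09, 95% interval −0.04 to 0.38, adjusted p = 0.272). The β subunit Eif2s2 had a log2 fold change of 0.19 ± 0.15. The γ subunit is encoded on both sex chromosomes, by Eif2s3x and Eif2s3y. Counts of Eif2s3y were 396 to 624 in control islets against 416 to 483 in knockout-labelled islets, and Xist, the RNA of the inactive X chromosome, had 0 counts in all 6 libraries. Per kb, Eif2s3y was at 12.2 and Eif2s3x at 2.53 CPM, and Eif2s3x made up 17.3% ± 4.29 of the pair in control islets and 17.3% ± 1.22 in knockout-labelled islets (SD), although reads of near-identical copies may be misassigned. Neither gene was called (−0.07 ± 0.14 and −0.02 ± 0.17). The alternative initiator tRNA factors Eif2a (0.12 ± 0.11, exons shared with the abundant Serp1) and Eif2d (0.06 ± 0.11) were not called.

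Within eIF2B, the exchange factor that recharges eIF2, the catalytic ε subunit Eif2b5 rose and the other 4 subunits were not called. Eif2b5 lies on chromosome 16 from 20498817 to 20509325 (mm10, plus strand, 16 exons) and overlaps no other gene of the table. It had 42.3, 39.6 and 44.6 CPM in control islets against 73.1, 57.9 and 73.4 in knockout-labelled islets. The groups did not overlap, and knockout-labelled library 2 was the lowest of its group. The log2 fold change was 0.69 ± 0.11, a 1.62-fold difference (95% interval 0.44 to 0.95, adjusted p = 0.0163), the smallest adjusted p among members. The β subunit Eif2b2 had 35.3, 39.1 and 42.2 CPM in control islets against 48.4, 42.9 and 52.2 in knockout-labelled islets. Its groups did not overlap but it missed the threshold (0.30 ± 0.11, adjusted p = 0.123). The α subunit Eif2b1 (0.01 ± 0.10), the γ subunit Eif2b3 (−0.15 ± 0.14) and the δ subunit Eif2b4 (−0.06 ± 0.12) had intervals that all included 0.

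The level of Eif2b5 was also set against the rest of its complex. Per kb, Eif2b5 stood at 1.29, 1.23 and 1.25 times the mean of the other 4 subunits in control islets against 2.04, 1.62 and 1.90 times in knockout-labelled islets. The groups did not overlap, and p was 0.1 in a two-sided exact permutation test, the least that 3 against 3 libraries can give. This ratio was chosen after the values of Eif2b5 were seen. Per-kb levels across the complex ranged from 3.54 for Eif2b3 to 27.6 for Eif2b2, a 7.78-fold range, although the subunits work as 1 complex.

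The subunits of eIF3, the scaffold that holds the small ribosomal subunit, had no call among the 12 tested. Per kb they ranged from 17.3 for Eif3a to 66.0 for Eif3m, a 3.81-fold range. All 12 log2 fold changes were positive, from 0.00 for Eif3f to 0.30 for Eif3i, with a median of 0.15. Control 3 was the lowest library for 8 of the 12 subunits. Without control 3 the median was 0.09 with 9 of 12 positive, and with the acinar covariate it was −0.03 with 5 of 12 positive. The largest separation by test was for Eif3g, an RNA-binding subunit, with 56.7, 47.1 and 48.7 CPM in control islets against 62.2, 58.5 and 62.4 in knockout-labelled islets (0.27 ± 0.10, adjusted p = 0.130). Without control 1, Eif3m passed the threshold (0.46, adjusted p = 0.0405), the only member to gain a call when 1 library was left out. With all libraries it had 93.6, 66.1 and 62.5 CPM in control islets against 83.7, 87.2 and 94.0 in knockout-labelled islets, so control 1 lay within the range of the knockout-labelled group. The regulatory subunits Eif3e (0.03 ± 0.11) and Eif3h (0.16 ± 0.12) were not called.

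Eif3j1 and Eif3j2, which encode the loosely bound j subunit and are placed by the table at the same locus and strand of chromosome 2, had 0 counts in every library. Their exon models in the table share 2409 bases, which is 99.8% of Eif3j1 and 100% of Eif3j2. How reads that fall in 2 genes were treated was not given, so these zeros say nothing about expression of the j subunit. The third untested member, the oocyte cap-binding protein Eif4e1b, overlaps no other gene and also had 0 counts, which allows at most 0.119 to 0.152 CPM per library (3 counts, counting error only).

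**Figure D2:**
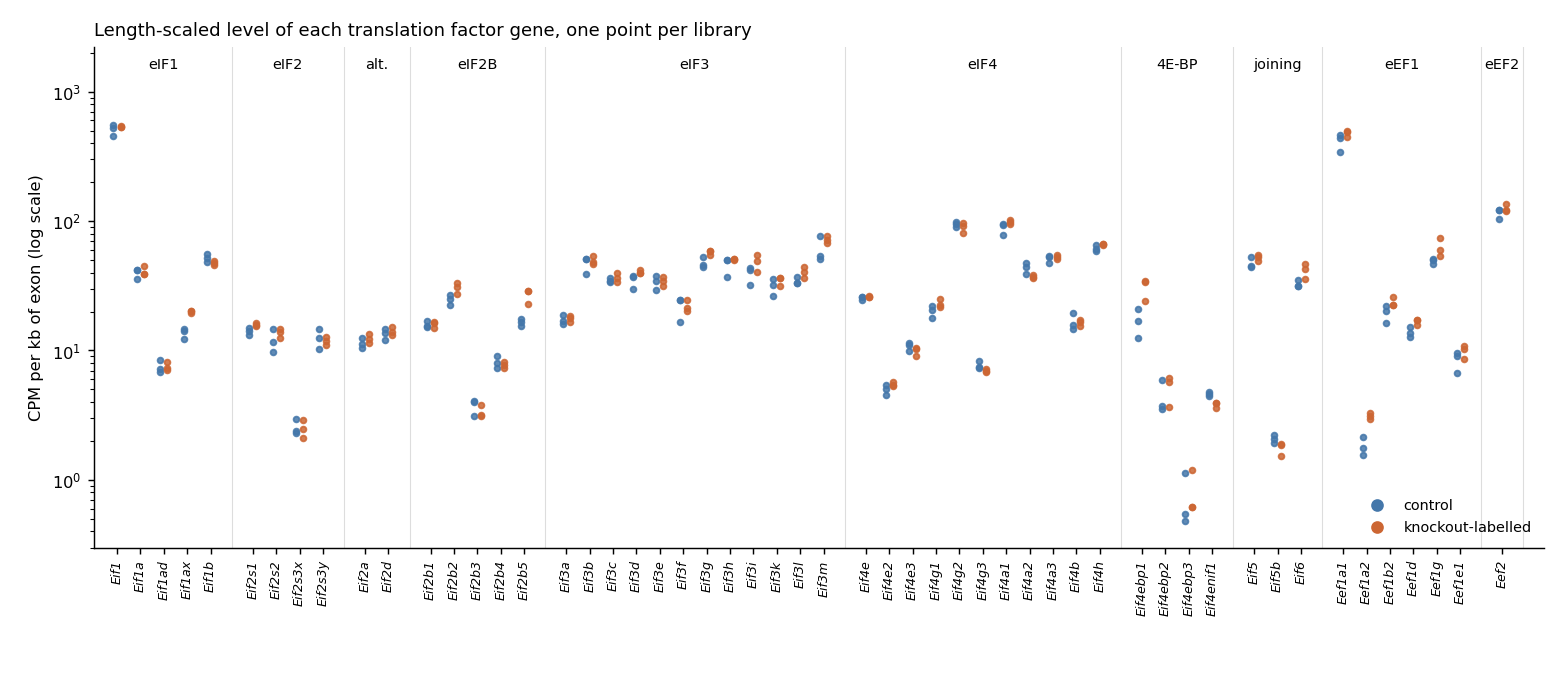
CPM per kb of exon (y axis, log scale) of the 53 tested genes, with 1 point for each library (blue control, orange knockout-labelled), ordered by step. Eif1 and Eef1a1 lie highest at 524 and 445 on average and Eif4ebp3 lowest at 0.762.

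None of 11 tested cap-recognition and unwinding factors was called, with 6 positive and 5 negative log2 fold changes. Eif4e, the protein that binds the mRNA cap, had the smallest standard error of the set, with 74.8, 70.2 and 74.3 CPM in control islets against 75.0, 74.3 and 75.4 in knockout-labelled islets. Its log2 fold change was 0.04 ± 0.08, with a 95% interval of −0.15 to 0.23. The weaker cap binders Eif4e2 (0.13 ± 0.11) and Eif4e3 (−0.13 ± 0.11) were not called. Of the scaffolds, Eif4g1 had a log2 fold change of 0.20 ± 0.11, its paralog Eif4g3 −0.14 ± 0.09, and Eif4g2 (also called DAP5, which supports initiation without the cap) −0.07 ± 0.13. Eif4g2 took 13.5% of all counts of the set, but on the CPM per kb scale it was at 91.6, with a model of 7760 bp.

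The RNA helicase paralogs of eIF4A were not called. Eif4a1 had 178, 148 and 175 CPM in control islets against 179, 186 and 192 in knockout-labelled islets (0.15 ± 0.11, adjusted p = 0.394). Eif4a2 had 140, 151 and 125 CPM in control islets against 116, 122 and 118 in knockout-labelled islets (−0.22 ± 0.10, adjusted p = 0.194, exons shared with Rfc4). In both genes the groups did not overlap, though the nearest libraries were close. Eif4a3, which works in the exon junction complex on spliced mRNA, was not called (0.04 ± 0.09), nor were the helicase cofactors Eif4b (−0.01 ± 0.12) and Eif4h (0.10 ± 0.09).

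Of the genes that restrain eIF4E, Eif4ebp1 had the largest rise in the set. It encodes 4E-BP1, which binds eIF4E and keeps it from the scaffold until mTOR phosphorylates it, and its gene is a known target of the stress factor ATF4. Its 3 exons span 27260327 to 27275656 of chromosome 8 (mm10, plus strand). CPM values were 20.6, 16.5 and 12.2 in control islets against 34.1, 23.5 and 33.3 in knockout-labelled islets. Knockout-labelled library 2 lay closest to the controls, just above control 1. The log2 fold change was 0.88 ± 0.20, a 1.85-fold difference (95% interval 0.44 to 1.33, adjusted p = 0.0341). Its paralog Eif4ebp2 had 6.34, 10.5 and 6.68 CPM in control islets against 6.51, 10.1 and 10.9 in knockout-labelled islets, with wide overlap (0.22 ± 0.25). Eif4ebp3 was barely detected, with 12 to 31 counts per library (0.17 ± 0.49). Eif4enif1, which carries eIF4E into the nucleus and to processing bodies, had the lowest fold change of the set, with 18.8, 19.5 and 20.1 CPM in control islets against 15.2, 16.7 and 16.5 in knockout-labelled islets. These groups did not overlap, and the difference did not pass after adjustment (−0.27 ± 0.10, edgeR adjusted p = 0.131).

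The factors of subunit joining were not called. Eif5, which triggers GTP hydrolysis on eIF2, had a log2 fold change of 0.14 ± 0.11. Eif5b, the joining GTPase, had 17.5, 16.2 and 15.2 CPM in control islets against 14.4, 14.9 and 11.9 in knockout-labelled islets (−0.24 ± 0.13, exons shared with Rev1). Eif6, which keeps free large subunits from joining, had 52.2, 47.1 and 47.5 CPM in control islets against 69.1, 53.1 and 64.0 in knockout-labelled islets. Its groups did not overlap, and it was the uncalled member with the smallest adjusted p (0.34 ± 0.11, adjusted p = 0.0926).

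All 7 elongation genes had a positive log2 fold change, and 1 of them, Eef1a2, was called. Eef1a2 encodes the eEF1A isoform typical of neurons and muscle and lies on chromosome 2 from 181147692 to 181157015 (mm10, minus strand, 8 exons). It was scarce, with 80 to 95 counts per control library and 125 to 152 per knockout-labelled library. CPM values were 4.40, 3.58 and 3.16 in control islets against 6.69, 6.06 and 6.35 in knockout-labelled islets, without overlap. The log2 fold change was 0.78 ± 0.20, a 1.72-fold difference (95% interval 0.34 to 1.22), and the adjusted p of 0.0475 lay just under the threshold. The common isoform Eef1a1 was at 445 CPM per kb against 2.46 for Eef1a2. It had 782, 822 and 612 CPM in control islets against 795, 871 and 893 in knockout-labelled islets, which overlap, with control 3 lowest (0.21 ± 0.15, adjusted p = 0.403). Eef1a1 has many processed pseudogenes that can draw off or add reads.

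The eEF1B subunits that recharge eEF1A were not called, though all had positive fold changes. Eef1g had 77.7, 79.6 and 73.3 CPM in control islets against 83.3, 94.1 and 117 in knockout-labelled islets (0.35 ± 0.12, adjusted p = 0.111). Eef1d (0.27 ± 0.10, adjusted p = 0.132) and Eef1b2 (0.27 ± 0.12, adjusted p = 0.192) also did not overlap between groups. Eef1e1, a small protein of the tRNA synthetase complex that resembles eEF1B, overlapped (0.24 ± 0.17). The translocase Eef2 had 376, 379 and 321 CPM in control islets against 374, 375 and 422 in knockout-labelled islets (0.12 ± 0.12, adjusted p = 0.553). Control 3 was the lowest library for all 7 elongation genes. Their median log2 fold change was 0.27 with all libraries, 0.15 without control 3, where all 7 were still positive, and −0.00 with the acinar covariate, where 3 were.

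Summed over genes, the set took 0.502 to 0.528% of all counts in control islets against 0.525 to 0.549% in knockout-labelled islets. Initiation genes took 0.390% ± 0.0164 and 0.394% ± 0.0111, and elongation genes 0.129% ± 0.0116 and 0.142% ± 0.00521 (SD, n = 3 each). Both ranges overlapped between groups. With hormone and acinar genes removed from the denominator, the whole set took 0.965 to 1.08% in control islets against 1.09 to 1.11% in knockout-labelled islets, which did not overlap. Eef1a1, Eif4g2 and Eif1 together made up 40.5% of the counts of the set.

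**Figure D3:**
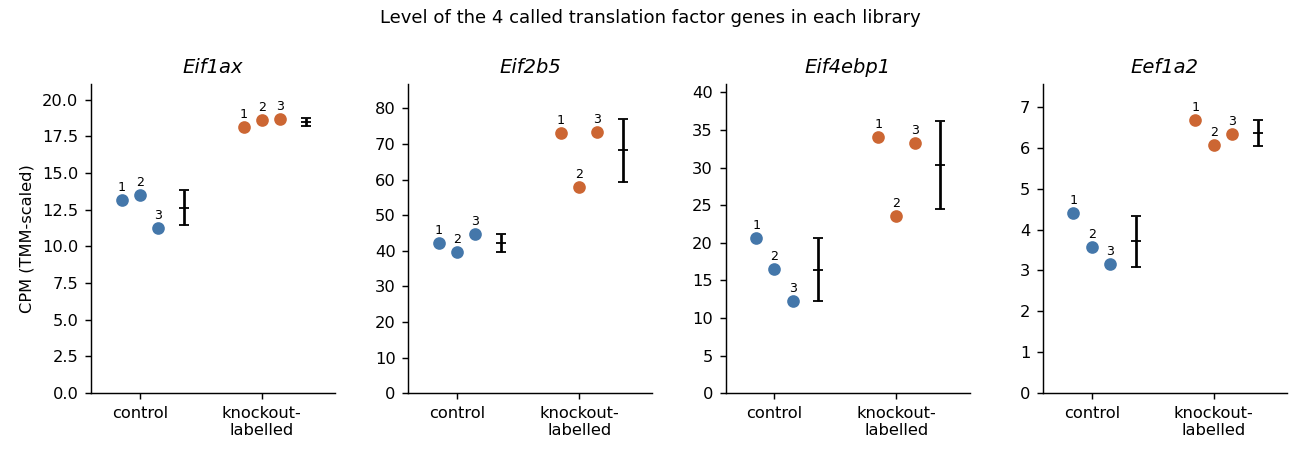
CPM (y axis, linear from 0) of the 4 called genes in each library, numbered by replicate, with the mean and SD of each group in black. In every panel the 3 knockout-labelled points lie above the 3 controls, and in Eif4ebp1 knockout-labelled library 2 lies just above control 1.

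Whether the 4 genes stayed called depended on single libraries. Their groups did not overlap, so leaving out 1 library was not free to turn the sign of their log2 fold changes. Over the leave-one-out fits the log2 fold changes ranged from 0.64 to 0.79 for Eif2b5, 0.70 to 1.08 for Eif4ebp1, 0.46 to 0.59 for Eif1ax and 0.66 to 0.92 for Eef1a2. No member was called without control 2 or without knockout-labelled library 1, where the calls over all genes numbered 97 higher and 16 lower, and 52 higher and 8 lower, against 568 and 361. Without control 3 only Eif2b5 stayed called, without knockout-labelled library 2 only Eif2b5 and Eif4ebp1, and without knockout-labelled library 3 only Eif2b5. Without control 1 all 4 were called. Adjusted p-values over the leave-one-out fits ranged from 0.0132 to 0.0731 for Eif2b5, 0.0226 to 0.112 for Eif4ebp1, 0.0393 to 0.0990 for Eif1ax and 0.0393 to 0.146 for Eef1a2. With the acinar covariate edgeR called 0 of 13736 genes, with 1426 at an unadjusted p under 0.05. In that fit the log2 fold changes were 0.79 for Eif2b5, 0.46 for Eif4ebp1, 0.53 for Eef1a2 and 0.37 for Eif1ax (adjusted p = 0.222, 0.553, 0.582 and 0.512), none of them called. Summed acinar, stromal, endothelial, myeloid and non-β endocrine markers did not overlap between groups, and 4 of 9 β cell markers were called lower. The part of these cell types in the differences was not tested.

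**Figure D4:**
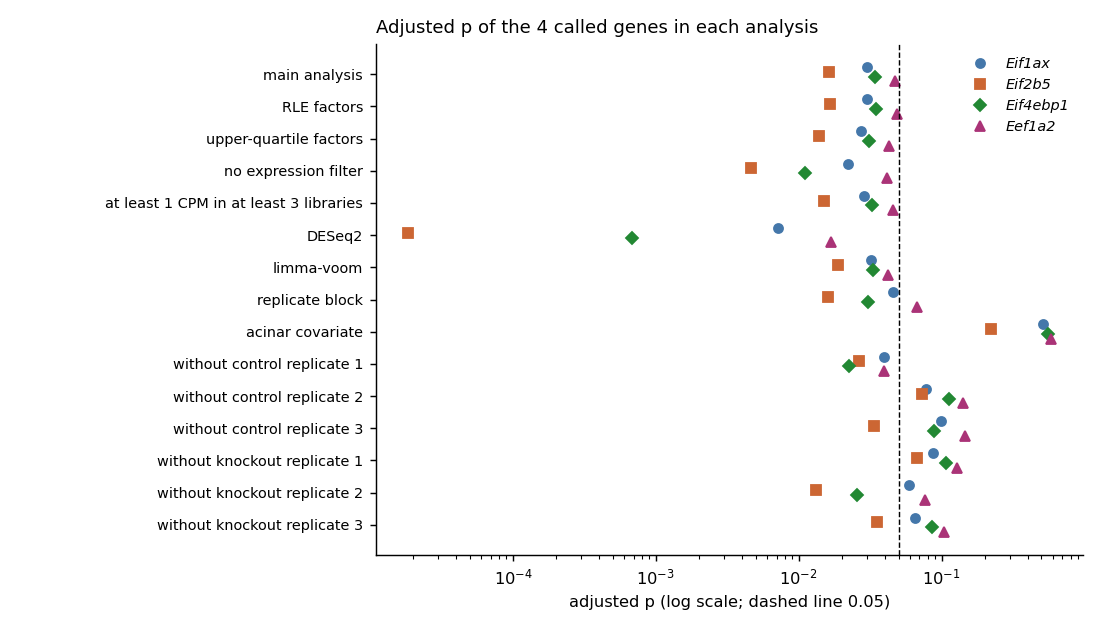
Adjusted p (x axis, log scale, dashed line at 0.05) of the 4 called genes in the main analysis and in 14 alternatives (y axis). Eif2b5 lies left of the line in 11 of the 14 alternatives, Eif4ebp1 in 9, Eif1ax in 8 and Eef1a2 in 7.

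Paralog balance was measured as the share of the less abundant gene of each pair, per kb of exon, in 7 pairs with counts. Eef1a2 made up 0.489, 0.380 and 0.450% of the Eef1a pair in control islets against 0.731, 0.605 and 0.618% in knockout-labelled islets. Eif4a2 made up 31.7, 37.6 and 29.6% of the Eif4a1 and Eif4a2 pair in control islets against 27.6, 27.9 and 26.7% in knockout-labelled islets. Eif4g3 made up 26.9, 31.8 and 24.6% of its pair with Eif4g1 in control islets against 24.1, 24.4 and 21.5% in knockout-labelled islets. These 3 pairs did not overlap between groups, each with p = 0.1 in the same exact permutation test, and 0.233 after Benjamini-Hochberg adjustment over the 7 pairs. The other 4 pairs overlapped: Eif4e with Eif4e2, Eif2s3y with Eif2s3x, Eif1 with Eif1b, and Eif4ebp1 with Eif4ebp2 (exact permutation p between 0.3 and 1). With 3 libraries a group this test cannot reach 0.05. Among single genes, 32.1% of all tested genes did not overlap between groups, and no such share was computed for other gene pairs. The 3 separate pairs of 7 are therefore a description only.

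**Figure D5:**
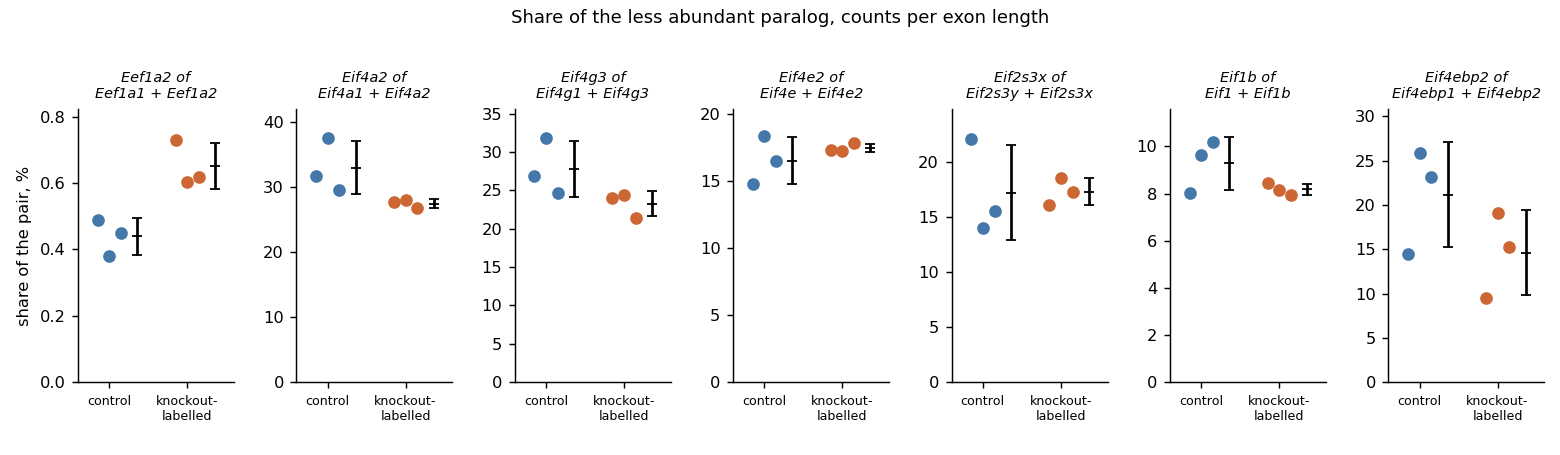
Share of the less abundant paralog in each of 7 pairs (y axis, percent of the pair, from counts per kb of exon), with 1 point per library and the mean and SD in black. The groups are separate for Eef1a2, Eif4a2 and Eif4g3 and overlap for the others.

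Of 31 translation control genes, Ddit3 rose, none was called lower and 30 were not called (3.23% called, against 6.76% of all genes). The median log2 fold change was 0.04. Ddit3 encodes CHOP, a transcription factor induced downstream of eIF2 phosphorylation and ATF4. It had 40.4, 38.6 and 39.6 CPM in control islets against 142, 76.8 and 86.9 in knockout-labelled islets (log2 fold change 1.37 ± 0.20, adjusted p = 0.0115), and its exons overlap those of Mars. It missed the threshold without control 2 (adjusted p = 0.0554) and with the acinar covariate (1.41, adjusted p = 0.214). Atf4 itself was not called (0.22 ± 0.11, adjusted p = 0.234), and neither were the eIF2 kinase genes Eif2ak1 (HRI, −0.05 ± 0.10), Eif2ak2 (PKR, 0.78 ± 0.24, adjusted p = 0.0737), Eif2ak3 (PERK, 0.42 ± 0.13, adjusted p = 0.0808) and Eif2ak4 (GCN2, −0.20 ± 0.19). The eIF4A inhibitor Pdcd4 (0.07 ± 0.12) and the poly(A)-binding protein Pabpc1 (0.13 ± 0.09) were not called. Over the list, 17 log2 fold changes were positive and 14 negative. Unadjusted edgeR p-values under 0.05 were found for 10 of the 31, against 26.5% of all genes, with 7 higher and 3 lower. The 3 lower were Ppp1r15a (−0.31 ± 0.13, adjusted p = 0.164), Nck1 (−0.31 ± 0.10, adjusted p = 0.0804) and Paip1 (−1.015 ± 0.433, adjusted p = 0.1705, groups overlapping).

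Of 8 mitochondrial translation factors none was called, with 0 at an unadjusted p under 0.05 and a median of −0.04. Of 77 tested cytosolic ribosomal protein genes 3 were called higher and 0 lower (3.90% called, against 6.76% of all genes). In this family 74 had a positive log2 fold change, against 50.9% of all genes, and the median was 0.33. Unadjusted edgeR p-values under 0.05 were found for 42 of the 77, all higher, against 26.5% of all genes. Groups did not overlap for 44 (57.1%), against 32.1% of all genes. The median of this family without control 3 or with the acinar covariate is not given here. Its processed pseudogenes can also take reads. The median over the initiation factors was 0.08 and that over the elongation factors 0.27. These medians are descriptions and the differences between sets were not tested.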

How the data were processed

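Per the submitters' processing notes, the build was mm10 and the tools were edgeR, featureCounts, Subread 1.5.0 and STAR 2.4.2a. Annotation, strand and multi-mapping settings: not given in the sources used here. Per the file headers, the authors deposited raw counts per gene, with exon positions and a gene length in bp. Per the labels' protocols, cDNA was made from low-input total RNA with poly-dT priming and sheared; such libraries do not mark strand.

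Counts were tested in R 4.3.3 with edgeR 4.0.16 (TMM factors, default expression filter by group, quasi-likelihood test, group as the only term), and p-values were adjusted over all 13736 tested genes. Standard errors come from the fold change and the F value. CPM use TMM-scaled library sizes, and levels between genes are compared per kb of summed exon length. Exon overlaps were found with GenomicRanges 1.54.1. Members, gene lists and tests were chosen with earlier results of these data known. Named genes were all called members, a fixed set of factors and the 5 largest fold changes. Eif3f, Eif3g, Eif3i, Eif3m, Eif4enif1, the eIF2 kinase genes, Ppp1r15a, Nck1 and Paip1 were named after their values were seen. The remaining members are named because the set is described in full. Overlaps with genes under a mean count of 10 are not mentioned. Alternatives: RLE factors, upper-quartile factors, no filter, at least 1 CPM in 3 libraries, DESeq2 1.42.0, limma-voom (limma 3.58.1), a replicate block, an acinar covariate and leaving out each library, with the tested genes unchanged. The procedure was tested on simulated data, but the condition for passing did not cover differences as small as those of these members. Libraries of a group differed beyond counting noise (chi-square per degree of freedom at least 11.1), so each counted once.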

Additional observations from a re-analysis of the deposited data

How the results depend on the processing

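Members called higher numbered 4 under RLE factors, upper-quartile factors, no filter, the 1 CPM filter, DESeq2 and limma-voom, and none was called lower under any of the 14 alternatives. With the acinar covariate, which cannot be told apart from the group, the counts were 0 members and 0 genes higher and 0 lower, and the member median was −0.0098. Leaving out 1 library gave 0 to 5 members called higher, 52 to 574 genes higher and 8 to 454 lower, against 568 and 361 with all libraries. DESeq2 called 990 genes higher and 712 lower, and no filter called 620 lower; the cause was not tested. The member median lay between 0.05 and 0.14 over the leave-one-out fits. Removing hormone and acinar genes from the denominator raised the difference in summed share from 0.00334 to 0.0354 percentage points for initiation factors and from 0.0134 to 0.0361 for elongation factors. Leaving out 1 library gave differences of −0.00343 (without control 1) to 0.0124 (without control 3) for initiation factors, also negative without knockout library 2 (−0.000999), and of 0.00863 (without control 3) to 0.0199 (without control 2) for elongation factors. Signs of fold changes without an adjusted p under 0.05 are descriptions only; among 38 named members, uncalled fold changes turned sign 35 times, in 18 genes.

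With the replicate number as a block, 3 members were called higher and Eef1a2 had an adjusted p of 0.0670. Same-numbered libraries had correlations of deviations of −0.0405, −0.0100 and 0.0578, and not every library correlated best with its own number, so the numbers were not treated as pairs. Eef1a2 had the lowest counts of the called genes, 80 to 152 per library.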
